A study of Homo sapiens with 6 samples.

Results

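Metallothioneins and zinc-responsive genes were examined as 10 genes of the 56303 in the count table, found by symbol: the metallothioneins MT2A, MT1X, MT1E, MT1F, MT1G, MT1M, MT1A and MT1H, the zinc exporter SLC30A1 and the transcription factor MTF1. The genes were chosen by the measured contrast of these same libraries, siFBXL6 against siNC, so their fold changes and calls are given as a description and support nothing. The established bladder carcinoma line T24 received either a control siRNA (siNC, labelled wild type) or siRNA against FBXL6 (siFBXL6, labelled FBXL6 knockdown) for 48 h, with 3 libraries in each group. All 6 libraries carry 1 batch label, and the label numbers were read as replicate numbers, although the study also numbers its siRNAs against FBXL6 in the same way. The study speaks of independent replicates in general. The sources used here do not say of these libraries whether the 3 of a group came from separate cultures. The p-values set each group difference against variation between these libraries, estimated partly across genes, and that variation may be technical. The siNC libraries held 58646515, 60967902 and 56814946 counts and the siFBXL6 libraries held 60968158, 60898556 and 60754015. Levels are given as CPM, counts per 1000000 counts of the library after TMM scaling of its total, and fold changes are siFBXL6 over siNC.

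Metallothioneins are small cysteine-rich proteins that bind zinc and copper, buffer free zinc and take up cadmium and other toxic metals. When zinc rises, the zinc-finger factor MTF1 binds metal response elements in the promoters of metallothionein genes and of SLC30A1, whose product ZnT1 moves zinc out of the cell. Metallothionein genes also respond to glucocorticoids and to oxidative stress, and the human genes lie together in a cluster on the long arm of chromosome 16.

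FBXL6, the siRNA target, had 362, 414 and 398 counts in the libraries labelled siNC. Those labelled siFBXL6 had 398, 344 and 350 counts. The siNC mean of 6.61 ± 0.38 CPM and the siFBXL6 mean of 6.03 ± 0.483 CPM (SD, n = 3 each) came from overlapping groups. On the log2 scale the difference was -0.13 with a standard error of 0.088 (edgeR's quasi-likelihood test, adjusted p = 0.247), and an exact two-sided permutation test of 3 against 3, which cannot give less than 0.1, gave p = 0.2. Of the exon bases counted for FBXL6, 37% also belong to other genes of the table, SLC52A2 on the opposite strand and GS1-393G12.13 on the same strand, and the strand setting of the counting was not given in the sources used here. These counts do not show that FBXL6 RNA was the same in both groups, and they say nothing of FBXL6 protein. The groups are named by their labels throughout, and every direction below is between the libraries labelled siFBXL6 and the libraries labelled siNC. ACTB, a cytoskeletal gene often used for scaling, had 1168 ± 24.5 CPM and 1168 ± 25.8 CPM (SD, n = 3 each) in siNC and siFBXL6, a difference of 0.00 on the log2 scale.

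MT2A, the metallothionein that most human cells express, lies on the plus strand at chr16:56608199-56609497 of GRCh38 as counted. Its RefSeq promoter window on GRCh38.p14, 250 bases before and 50 after the gene start, is chr16:56608334-56608633, plus strand. It is shown with MT1X, a second metallothionein with counts in every library (chr16:56682220-56682519, plus strand). MT1H (chr16:56669564-56669863, plus strand), whose counts were nearly all 0, is shown too. Promoters of counted and of hardly counted genes of the cluster can thus be compared. The window of SLC30A1 (chr1:211579112-211579411, minus strand) is added because its count went the other way. Capitals mark the metal response element core, TGCACNC or TGCGCNC on either strand.
MT2A: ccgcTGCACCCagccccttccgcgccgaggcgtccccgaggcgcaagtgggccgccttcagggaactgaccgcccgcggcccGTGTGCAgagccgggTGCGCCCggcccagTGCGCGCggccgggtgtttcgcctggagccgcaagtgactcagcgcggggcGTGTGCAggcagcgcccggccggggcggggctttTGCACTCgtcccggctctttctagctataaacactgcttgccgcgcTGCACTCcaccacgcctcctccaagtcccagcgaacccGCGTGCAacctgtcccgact
MT1X: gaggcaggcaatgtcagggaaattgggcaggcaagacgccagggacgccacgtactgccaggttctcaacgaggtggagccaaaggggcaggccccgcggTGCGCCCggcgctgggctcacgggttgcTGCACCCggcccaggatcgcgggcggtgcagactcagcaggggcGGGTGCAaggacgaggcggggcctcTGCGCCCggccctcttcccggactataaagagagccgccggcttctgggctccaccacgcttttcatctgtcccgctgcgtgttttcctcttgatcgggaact
MT1H: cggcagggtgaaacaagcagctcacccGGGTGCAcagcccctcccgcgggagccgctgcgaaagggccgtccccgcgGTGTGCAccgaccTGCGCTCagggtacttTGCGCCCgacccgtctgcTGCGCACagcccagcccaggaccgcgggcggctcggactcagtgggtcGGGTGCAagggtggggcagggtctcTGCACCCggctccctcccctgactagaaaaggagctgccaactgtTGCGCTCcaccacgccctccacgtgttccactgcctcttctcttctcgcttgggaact
SLC30A1: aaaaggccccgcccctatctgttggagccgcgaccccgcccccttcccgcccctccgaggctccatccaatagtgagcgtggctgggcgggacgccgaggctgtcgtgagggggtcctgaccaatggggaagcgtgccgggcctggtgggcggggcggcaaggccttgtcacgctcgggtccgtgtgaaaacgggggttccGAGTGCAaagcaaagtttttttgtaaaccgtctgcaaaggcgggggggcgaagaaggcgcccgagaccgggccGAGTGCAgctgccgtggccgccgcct

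MT2A and MT1H each held 8 matches of the metal response element core, MT1X held 4 and SLC30A1 held 2. With the stricter core TGCACTC or TGCGCTC this order did not hold, since MT2A, MT1H and SLC30A1 held 2 each and MT1X none. Among 35116 promoters of the same length, 29.6% held at least 1 match, 8.6% at least 2, 0.601% at least 4 and 0.0199% at least 8. The window of MTF1 (chr1:37859543-37859842, minus strand) held no match, which says only that these letters are not in it. MT1E, MT1F, MT1G, MT1M and MT1A were not in the promoter table, so 5 of the 10 genes were matched. Of the other metallothionein genes, MT1B and MT4 held 3 matches each. In MT2A, 7 of the 8 matches began before the gene start, the nearest 8 bases before it, and 1 began 30 bases after it on the other strand. In MT1H all 8 began before the start, the nearest also 8 bases before it, and the matches in SLC30A1 were both on the other strand, 49 bases before and 24 after. The gene start in RefSeq lies 419 bases upstream of the counted exons for SLC30A1, at the first counted base for MT1H and 385 bases inside the counted span for MT2A, so that the whole MT2A window lies within the counted gene. The antioxidant response element core TGACNNNGC, searched on both strands, had 1 match each in MT2A, MT1X and SLC30A1, none in MT1H and MTF1, and at least 1 in 13.3% of all promoters. No match of this motif overlapped a metal response element core. The windows of the 5 matched members held from 67% G and C in MT1X to 72% in MT2A, beside a median of 58.7% over all promoters. Their CG dinucleotides ran from 24 in MTF1 to 37 in MT2A, beside a median of 14. MT1B and MT4 held 60.3% and 64.3% G and C, with 7 and 8 CG dinucleotides. A match is a description of the letters, and MT1H with 8 matches was hardly counted in either group.

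MT2A was counted 14783, 15632 and 14773 times in the siNC libraries and 41805, 40320 and 40003 times in the siFBXL6 libraries. In CPM this was 252.8, 253.05 and 257.3 in siNC and 691.3, 667.6 and 663.8 in siFBXL6. Every siFBXL6 library lay above every siNC library, and the lowest siFBXL6 value was far outside the spread of the siNC values. The means were 254.4 ± 2.52 in siNC and 674.2 ± 14.9 in siFBXL6 (SD, n = 3 each), which is 2.65-fold or 1.41 on the log2 scale (standard error 0.029, 95% interval 1.35 to 1.47). In bulk RNA, more cells with MT2A RNA and more MT2A RNA per cell cannot be told apart.

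MT1X was counted 361, 426 and 366 times in siNC and 502, 542 and 553 times in siFBXL6. The levels were 6.48 ± 0.373 and 8.82 ± 0.458 CPM (SD, n = 3 each), and no siNC library reached the lowest siFBXL6 library. The log2 fold change was 0.44 (standard error 0.079, 95% interval 0.28 to 0.60), 1.36-fold. MT1X shares 321 bases, 18.1% of its counted exons, with RP11-343H19.2, a gene on the same strand, chosen here after its values were seen. RP11-343H19.2 was counted 340, 388 and 330 times in siNC and 472, 502 and 516 times in siFBXL6, between 90.2% and 94.2% of the MT1X count in each library. The shared bases make up 58.3% of its own exons, and how reads that fall on several genes were counted was not given in the sources used here, so the counts of both genes are uncertain.

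MT1F was counted 144, 147 and 132 times in siNC and 191, 226 and 181 times in siFBXL6. The level was 2.38 ± 0.0817 CPM in siNC and 3.30 ± 0.389 CPM in siFBXL6 (SD, n = 3 each), without overlap of the groups and with a wider spread among the siFBXL6 libraries. The log2 fold change was 0.47 (standard error 0.13, 95% interval 0.21 to 0.73), 1.39-fold, close to that of MT1X and well under that of MT2A.

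The other 5 metallothioneins had few or no counts. MT1E was counted 0, 6 and 6 times in siNC and 2, 4 and 4 times in siFBXL6, and MT1G 2, 0 and 2 times against 0, 0 and 2. MT1H had 2 counts, both in siFBXL6 library 3, MT1A had 1 count, in siNC library 1, and MT1M had none in any of the 6 libraries. A count of 0 allows up to 3 counts, which in these libraries is between 0.0486 and 0.0522 CPM, for counting error only. Most small counts were even, and if both mates of a read pair were counted the limit is 6 counts, between 0.0971 and 0.104 CPM. No fold is given for these genes. Their highest level in any library was 0.104 CPM, for MT1E in siNC library 3. Differences between groups within such low levels were not detectable at this depth.

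SLC30A1, the exporter ZnT1, was counted 1809, 1926 and 1886 times in siNC and 1427, 1367 and 1413 times in siFBXL6. The means were 31.7 ± 1.04 and 23.2 ± 0.518 CPM (SD, n = 3 each), and every siFBXL6 library lay below every siNC library. The log2 fold change was -0.45 (standard error 0.046, 95% interval -0.54 to -0.35). MT2A, which like SLC30A1 is a textbook target of MTF1, thus went in the opposite direction in the same libraries. The ratio of MT2A to SLC30A1 in CPM was 8.17, 8.12 and 7.83 in the siNC libraries and 29.3, 29.5 and 28.3 in the siFBXL6 libraries.

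MTF1, the metal-sensing transcription factor itself, was counted 1258, 1312 and 1090 times in siNC and 1492, 1592 and 1587 times in siFBXL6. The level was 20.6 ± 1.39 against 25.8 ± 0.966 CPM (SD, n = 3 each), without overlap of the groups. The log2 fold change was 0.33 (standard error 0.052, 95% interval 0.22 to 0.43), 1.25-fold. This estimate lay below those of the 3 metallothioneins with enough counts. Its interval overlapped those of MT1X (0.28 to 0.60) and MT1F (0.21 to 0.73). RNA says nothing of where the MTF1 protein was or how much zinc the cells held, and neither was measured in these libraries.

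**Figure D1:**
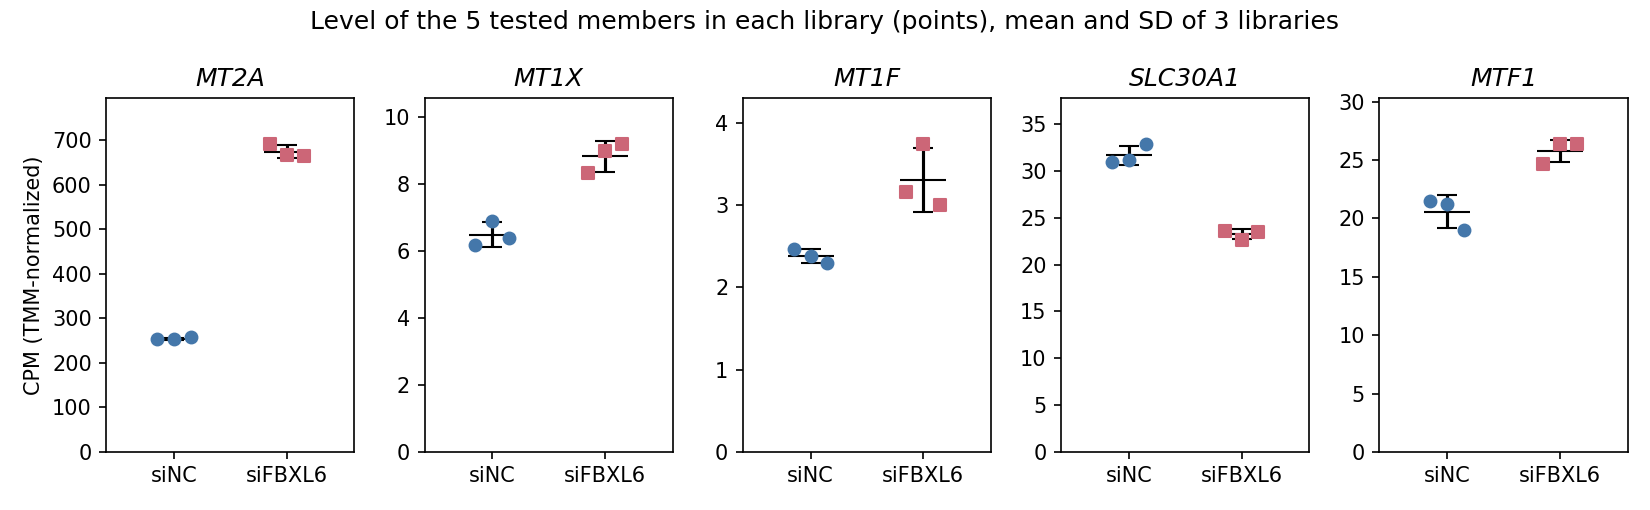
Level of MT2A, MT1X, MT1F, SLC30A1 and MTF1 in CPM (TMM-normalized, vertical axes from 0 and scaled by gene) in each siNC library (circles) and siFBXL6 library (squares), with the mean and SD of 3 libraries in black. The siFBXL6 libraries lie above the siNC libraries for MT2A, MT1X, MT1F and MTF1 and below them for SLC30A1.

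Of the 10 genes, 5 passed the filter on low counts, and 5 (MT1E, MT1G, MT1M, MT1A and MT1H) did not. At an adjusted p under 0.05, MT2A, MT1X, MT1F and MTF1 were called higher and SLC30A1 lower. In the whole table, 8569 of 21298 genes tested were called (40.2%), 4360 of them higher (20.5%) and 4209 lower (19.8%). Since the genes were chosen by this contrast, nothing is read from their count.

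Levels of different genes were compared per kilobase of counted exons. In siNC, MT2A was at 195.8 ± 1.94 CPM per kb, SLC30A1 at 5.78 ± 0.19, MT1X at 3.66 ± 0.211, MTF1 at 2.56 ± 0.173 and MT1F at 1.26 ± 0.0433 (SD, n = 3 each). In siFBXL6, MT2A was at 519 ± 11.5 CPM per kb, MT1X at 4.97 ± 0.258, SLC30A1 at 4.24 ± 0.0947, MTF1 at 3.21 ± 0.12 and MT1F at 1.75 ± 0.206. MT1X and SLC30A1 thus changed places on this scale, though not with canonical transcript lengths, and no neighbours in either order overlapped in their 3 libraries. The gap between MT2A and the next gene was 33.9-fold in siNC, over SLC30A1, and 104.4-fold in siFBXL6, over MT1X. These levels depend on the length used, because the counted exons of MT2A span 1299 bases and those of MT1X 1773, whereas their canonical GENCODE transcripts have 401 and 404 bases. With canonical lengths, an alternative chosen after seeing the data, MT1X lay above SLC30A1 in both groups. MT2A was then 39.5-fold above MT1X in siNC and 77.0-fold in siFBXL6. MT1F and SLC30A1 overlapped in siNC on this scale, at 5.60 ± 0.192 and 5.37 ± 0.177 CPM per kb, with the order reversed in siNC library 3 (5.41 and 5.57), and were apart in siFBXL6, at 7.77 ± 0.916 and 3.94 ± 0.088 (SD, n = 3 each).

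**Figure D2:**
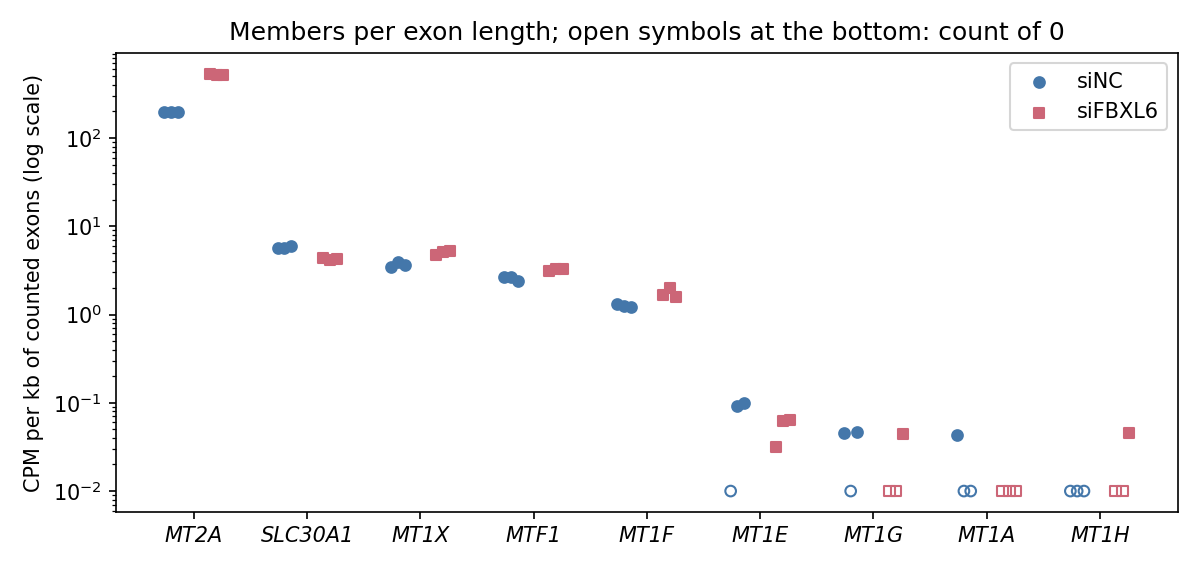
Level of the genes in CPM per kilobase of counted exons on a log scale, in each siNC library (circles) and siFBXL6 library (squares), with open symbols at the bottom for a count of 0. MT1M, with no count, is not drawn. MT2A lies above the rest in all 6 libraries, and MT1E, MT1G, MT1A and MT1H lie at or near 0.

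MT2A made up nearly all of the metallothionein RNA counted. Its share of the length-scaled level of the 8 metallothioneins was 97.6%, 97.4% and 97.6% in the siNC libraries and 98.8%, 98.6% and 98.7% in the siFBXL6 libraries. The share of MT1X fell from 1.82 ± 0.108% to 0.947 ± 0.0684% and that of MT1F from 0.628 ± 0.0271% to 0.333 ± 0.0413% (SD, n = 3 each), while their own CPM were higher in siFBXL6. The 8 genes together took 261.5, 262.4 and 266.1 CPM in siNC and 702.8, 680.4 and 676.1 CPM in siFBXL6, or 0.0261% to 0.0269% and 0.0671% to 0.0697% of all counts.

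Metallothionein genes resemble each other, so reads can be shared between them. Of all 50-base windows of the canonical transcript, 10.2% in MT2A, 18% in MT1X and 6.12% in MT1F were found exactly in at least 1 of the other metallothionein genes and pseudogenes. Of 100-base windows, none were shared for these 3 genes, and only MT1H among the 8 shared any (3.36%, with MT1HL1). How reads that match several genes were treated was not given in the sources used here, and the counts of the metallothioneins are uncertain to that extent. Among the related genes outside the 10, the highest counts were small beside those of MT2A. MT1P3, a pseudogene on chromosome 20, was counted 14, 7 and 7 times in siNC and 3, 8 and 0 times in siFBXL6, and 29.9% of its bases overlap MMP24-AS1 on the opposite strand. MT2P1, a pseudogene on chromosome 4, was counted 4, 8 and 3 times against 6, 10 and 7. No library reached 10 counts for any of the other 10 of the 12 metallothionein genes and pseudogenes found outside the members, and none of the 12 was tested.

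The table placed 15 metallothionein genes and pseudogenes within 119 kb of chromosome 16 (chr16:56565049-56684196), and 5 of them had 10 or more counts over the 6 libraries. MT2A, MT1F and MT1X, the 3 that were tested, were separated by genes with 0 to 22 counts in all, among them MT1L, MT1E, MT1M, MT1JP, MT1A, MT1DP, MT1CP and MT1B between MT2A and MT1F. The 2 nearest tested genes on either side, chosen after their values were seen, gave a view of the surroundings. OGFOD1, an oxygenase gene, was at 38.7 CPM in siNC and 45.1 CPM in siFBXL6, 0.22 higher on the log2 scale (standard error 0.042, edgeR adjusted p = 5.62e-05). BBS2 (0.05, adjusted p = 0.469), NUP93 (0.00, adjusted p = 0.953) and RP11-343H19.1 (-0.37, adjusted p = 0.699) were not called by edgeR's test.

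Zinc leaves the cytosol through the ZnT family, to which SLC30A1 belongs. Of the 10 other ZnT genes, 6 were tested, with 1 higher, 1 lower and 4 not called, and their median log2 fold change was -0.03 beside -0.01 over all genes tested. This list and those below were not tested against the whole table, in which 20.5% of genes were called higher and 19.8% lower. SLC30A7, which carries zinc into the secretory pathway, had 678, 729 and 738 counts in siNC and 970, 991 and 1041 in siFBXL6, which is 0.46 on the log2 scale (standard error 0.061, edgeR adjusted p = 1.79e-07). SLC30A4, an exporter of vesicles and the cell surface, had 361, 441 and 367 counts in siNC and 298, 313 and 337 in siFBXL6, and its log2 fold change was -0.33 (standard error 0.091, adjusted p = 0.00366 in edgeR). SLC30A1 and SLC30A7, both exporters, therefore went in opposite directions.

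Zinc enters the cytosol through the ZIP family. Of 14 ZIP genes, 11 were tested, and 72.7% of these were called, beside 40.2% of all genes tested. Among the lists of zinc, metal, stress and glucocorticoid genes, this share ran from 33.3% for ZnT genes to 77.8% for copper handling. Of the 11 ZIP genes tested, 6 were higher, 2 lower and 3 not called, and their median log2 fold change was 0.10. SLC39A14, an importer of zinc and manganese, rose most of the 6 (0.33, standard error 0.04, edgeR adjusted p = 2.45e-08). SLC39A13, SLC39A4, SLC39A1, SLC39A7 and SLC39A6 rose by 0.24, 0.21, 0.20, 0.12 and 0.10 on the log2 scale. SLC39A4, the intestinal importer, lost its call with DESeq2 (adjusted p = 0.0879), without the filter on low counts, and when any siNC library or siFBXL6 library 1 was left out (adjusted p from 0.0522 to 0.126 in edgeR). SLC39A11 fell most (-0.43, standard error 0.049, edgeR adjusted p = 7.00e-09). SLC39A10 fell by 0.22 on the log2 scale (adjusted p = 4.84e-05 in edgeR's test).

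**Figure D3:**
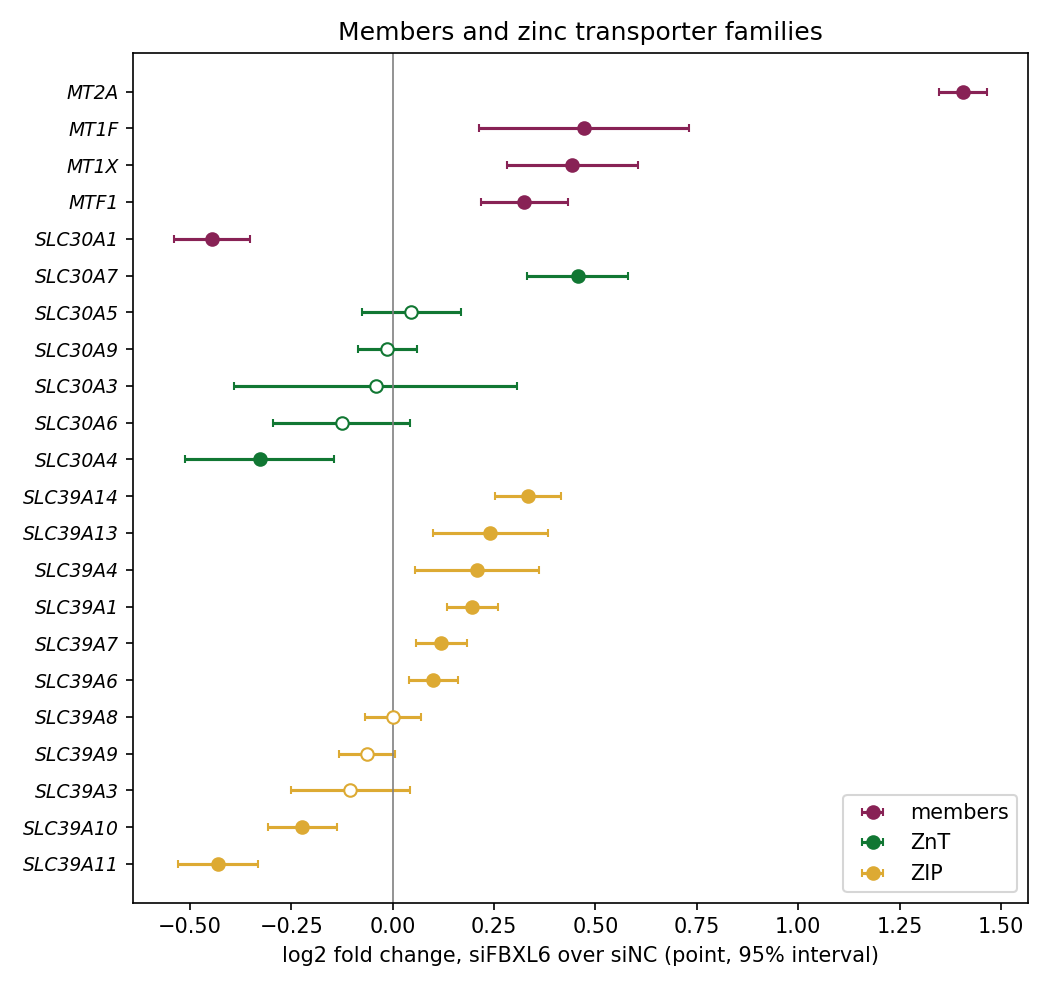
Log2 fold change, siFBXL6 over siNC, with its 95% interval, for the 5 genes that passed the filter and for the tested genes of the ZnT and ZIP families. Filled points were called at an adjusted p under 0.05 and open points were not. MT2A stands at 1.41, and of the called genes SLC30A1, SLC30A4, SLC39A10 and SLC39A11 lie below 0.

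Of 9 other genes reported to answer to MTF1, 8 were tested, with 3 higher, 3 lower and 2 not called, and a median log2 fold change of -0.15. SLC39A10, 1 of the 3 lower, was also counted among the ZIP genes and is reported as repressed, and without it, a choice made after seeing the data, the list held 3 higher and 2 lower with a median of -0.10. GCLC, which was not called, is also among the stress genes below. NDRG1, a stress-responsive gene, rose from 181.9 ± 3.24 to 352.5 ± 3.21 CPM (SD, n = 3 each; log2 fold change 0.95, adjusted p = 1.77e-23 in edgeR's test). CSRP1 rose from 15.2 to 22.8 CPM (log2 fold change 0.59, adjusted p = 1.31e-10 in edgeR's test). SELENOH, listed as C11orf31 and coding for a selenoprotein, fell from 52.1 to 45.4 CPM (log2 fold change -0.20, adjusted p = 4.8e-05 in edgeR's test). In a list labelled zinc regulators and chaperones, 3 of 5 genes were lower and 2 not called (median -0.10). The label is loose, as the descriptions of the 3 lower genes show. These were MTF2, a Polycomb-associated gene named for the metal response element (-0.20, adjusted p = 5.00e-06 in edgeR's test), METAP1, a methionine aminopeptidase (-0.10, adjusted p = 0.013), and CBWD2, a gene of a zinc chaperone family (-0.10, adjusted p = 0.0455), which has close copies in the genome and an uncertain count. METAP1 lost its call in edgeR's test without siFBXL6 library 2 (adjusted p = 0.0771), and CBWD2 lost its call under 7 of 14 alternatives.

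Metallothioneins also bind copper, and all 18 copper-handling genes were tested, with 7 higher, 7 lower and 4 not called (median -0.01). COX17, a copper chaperone of mitochondria, and STEAP2, a metalloreductase, rose by 0.40 and 0.46 on the log2 scale, whereas CP, the plasma copper oxidase, fell by 0.34, each called by edgeR. Of 13 metal and oxidative stress genes, 4 were higher, 2 lower and 7 not called (median 0.06). SLC7A11, the cystine importer, and TXNRD1, a thioredoxin reductase, rose by 0.44 and 0.37 on the log2 scale, and NQO1, a quinone reductase, fell by 0.50. Of 11 glucocorticoid-responsive genes, 4 were higher, 3 lower and 4 not called (median 0.22). ERRFI1 and SGK1 rose by 0.67 and 0.45, and TSC22D3, a gene commonly used as a glucocorticoid readout, fell by 0.46. Across the 7 lists of zinc, metal, stress and glucocorticoid genes, the highest log2 fold change was 0.95, beside 1.41 for MT2A. Because MT2A was chosen by this contrast, nothing is read from that order. Over all genes tested, the log2 fold change ran from -3.14 to 3.84.

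MT2A held on average 96.6% of the metallothionein counts in siNC and 98.2% in siFBXL6, so their summed level was nearly that of MT2A. The genes that followed this sum most closely were G0S2, MMP14, SCEL, IL1B and DOCK9. Their log2 CPM had Pearson correlations from 0.9997 to 0.9998 with the log2 of the summed CPM of the 8 metallothioneins over the 6 libraries, out of 16188 genes averaging 1 CPM or more. The 6 libraries form 2 groups, so a gene that is higher in siFBXL6 by far more than its spread within groups correlates highly. A correlation above 0.99 was found for 536 genes. G0S2 had 119.9 ± 1.33 CPM in siNC and 375.3 ± 10.4 in siFBXL6, SCEL 78.6 ± 0.317 against 291.2 ± 2.32, and DOCK9 62.1 ± 0.188 against 83.9 ± 0.224 (SD, n = 3 each).

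Markers fixed for cell types were read beside the metallothioneins, and their part in the result was not tested. Epithelial markers, led by KRT7, summed to 3857, 3728 and 3839 CPM in siNC and 3401, 3381 and 3395 CPM in siFBXL6, with 1 of 7 higher, 5 lower and 1 not called. KRT7 was among the lower ones and lost its call in edgeR without siFBXL6 library 1 or 3 (adjusted p of 0.074 and 0.107). Of the 7 urothelial markers, led by TP63, 4 were tested (1 higher, 1 lower), and UPK1A had no count in any library. The 7 together summed to 214.6 to 216.5 CPM in siNC and 219.8 to 229.1 CPM in siFBXL6. Most of this sum is TP63, which was at 0.18 on the log2 scale, whereas GATA3 was at -0.53 (both called by edgeR). UPK2 and PPARG, lower in the mean, were not called. Mesenchymal markers, led by CDH2, summed to 152.3 to 156.3 CPM in siNC and 116.9 to 119.1 CPM in siFBXL6, with 1 of 3 higher and 1 lower. The sum is mostly CDH2, which fell by 0.59 on the log2 scale, whereas VIM rose by 0.70 (both called by edgeR). Leukocyte markers summed to 7.18 to 7.30 CPM in siNC and at least 18.0 CPM in each siFBXL6 library, nearly all of it CD68, a lysosomal gene that many cell types express. PTPRC was at or under 0.696 CPM in every library, and CD3E had 4 counts, all in siNC library 2. Endothelial markers, led by VWF in siNC and by PECAM1 in siFBXL6, summed to at most 1.85 CPM in siNC and 3.20 CPM in siFBXL6, with PECAM1 called higher at 1.28 on the log2 scale. Fibroblast markers, led by COL1A1, summed to 36.4 to 39.2 CPM in siNC and 32.9 to 34.2 CPM in siFBXL6, with 1 of 4 lower, and the erythroid markers HBB and HBA1 together were at or under 0.0996 CPM, HBA1 at 0 in all 6 libraries.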

How the data were processed

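The authors deposited raw counts per gene for the 6 libraries, from stranded mRNA-seq (DNBSEQ-T7). The study's methods name Trimmomatic and HISAT2 on GRCh38, whereas the submitters' processing notes list fastp 0.23.0 and STAR. Both name featureCounts and Subread 1.5.1. Annotation release, strand setting and the treatment of shared reads were not given in the sources used here. Of the genes found by symbol in GENCODE release 44, 99.7% overlap their position there. From the counts, edgeR 4.0.16 (filterByExpr, TMM, quasi-likelihood test on condition, Benjamini-Hochberg over 21298 genes tested, called at an adjusted p under 0.05) was run after a check on simulated data, and intervals are 95%. The members and lists were chosen with earlier results of these data known. Named genes were the 10 members, FBXL6, ACTB, every called ZnT or ZIP gene and the 3 smallest adjusted p of each other list. Also named were metallothionein genes with at least 10 counts in a library, the markers and the 5 genes most correlated with the summed metallothioneins. Outside this rule, genes of the chromosome 16 cluster and beside it were named. So were genes that overlap a named gene or share sequence with it, and GCLC, which its lists share. Promoter sequences are from RefSeq on GRCh38.p14. Libraries of a group were compared pairwise, with a chi-square per degree of freedom from 2.85 to 6.24, or 1.43 to 3.12 with counts halved for read pairs, where counting noise alone gives about 1, and all 6 were kept as separate samples, as labelled. Small counts were mostly even (72.4% to 73.8% of counts from 1 to 10), so both mates of a read pair may have been counted. DESeq2 1.42.0, other scalings and filters, a replicate block and each library left out were alternatives.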

Additional observations from a re-analysis of the deposited data

How the results depend on the processing

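The 10 genes were chosen by this contrast, so their values under the alternatives are a description and no sign of stability. Over 14 alternatives, the log2 fold change ranged from 1.38 to 1.42 for MT2A, 0.41 to 0.49 for MT1X, 0.37 to 0.54 for MT1F, 0.27 to 0.36 for MTF1 and -0.47 to -0.42 for SLC30A1. FBXL6 was not called in any of them (-0.20 to -0.09, adjusted p from 0.112 to 0.521 in edgeR or DESeq2). The direction with more calls differed between choices, with 4360 higher and 4209 lower after TMM, 3930 and 4777 with library size alone, 3972 and 4718 with upper-quartile factors and 4247 and 4323 with halved counts. DESeq2 called 7039 genes, and counts divided by 2, an alternative chosen after seeing the data because most small counts are even, gave 8570.

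With the replicate number as a block, 8408 genes were called, beside 8569 without it. Same-numbered libraries did not deviate together (correlations of -0.0108, 7.99e-05 and 0.0133), so the numbers were not taken to pair the samples, and the block changed no call of a gene named here.

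Apart from the 10 genes and FBXL6, 59 genes of the naming rule or beside the cluster had a fit, including markers the report counts without naming, and 54 kept their side of the threshold in each alternative that gave a value, although some that were not called (ACTB, DCN, KRT18, NUP93, RP11-343H19.1, VWF and ZEB1) changed sign. SLC39A4, METAP1, CBWD2 and KRT7 lost their calls in 6, 1, 7 and 2 alternatives, and PPARG gained one in 2. With each library left out in turn, genes called lower numbered 1 to 2 among ZnT genes. They numbered 1 to 3 in the list labelled zinc regulators and chaperones. Among metal and oxidative stress genes they numbered 1 to 2, where DESeq2 also gave 1. The ZnT count was 2 without siNC library 1, the regulator count 1 without siFBXL6 library 2, and the stress count 1 without siNC library 2, siNC library 3 or siFBXL6 library 3. The cause was not tested. By construction, shares of raw counts put MT2A at 96.6% in siNC and 98.2% in siFBXL6, and canonical transcript lengths, chosen after seeing the data, at 96.7% and 98.3%. The same lengths gave the means the order MT2A > MT1X > MT1F > SLC30A1 > MTF1 in both groups, MT1F and SLC30A1 overlapping in siNC, with SLC30A1 at 0.336 of the MT1X level per kb in siNC and 0.181 in siFBXL6, beside 1.59 and 0.855 with the counted exons. A stricter metal response element core, TGCACTC or TGCGCTC, left 6 of the 22 matches in the 5 member promoters. The counts of MT1E, MT1G, MT1M, MT1A and MT1H were too few to compare, and why they were low was not tested.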
